A study of Mus musculus with 144 samples.

Results

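Trauma-hemorrhage is an experimental injury of mice that joins tissue trauma to blood loss. The leukocytes of blood taken 1 day after it are described here across all genes, on 4 trauma-hemorrhage arrays set against 4 sham arrays of the same model and time. These 8 arrays were chosen by their titles from the 144 arrays of 36 groups, which also hold burn injury, LPS, spleen and other times. The titles of the arrays also hold the word burn, while their descriptions name the trauma-hemorrhage model, and the descriptions were followed. Each array held RNA of an individual mouse, per the series' design text, and leukocytes came from cardiac puncture and lysis of red cells. Strain, age and sex are not given in the sources used here, nor are the depth and length of the bleed, and what the sham animals underwent is not stated beyond the word sham. RNA was labelled after amplification and hybridized to Affymetrix mouse arrays, whose probe sets report 18193 genes, of which 14708 were bright enough to test.

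Severe injury with blood loss changes the make-up of blood within hours. Neutrophils and their precursors leave the marrow, lymphocytes leave the circulation, the kidney releases erythropoietin and the marrow sends out young red cells, called reticulocytes, that still carry RNA. Platelets, the cell fragments that start clotting, hold RNA passed on from megakaryocytes and stay partly with the leukocytes when blood is prepared. Interferons, which cells release on sensing viral or self nucleic acid, switch on a large set of antiviral genes through factors such as Stat2, Irf9 and Irf7. In a bulk sample of blood, fewer cells of a type and less RNA per cell of that type cannot be told apart, and this holds for every gene group below.

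The signals are MAS5 intensities on a linear scale, which the authors had brought to 1 common mean per array. Values of the 4 replicates are given below in the order of their numbers, which are not stated to pair injured with sham mice. Differences are log2(trauma-hemorrhage signal + 32) minus log2(sham signal + 32), with standard error and a p from limma adjusted by Benjamini-Hochberg over all genes tested, and a gene is said to have risen or fallen where that p was under 0.05. The pan-leukocyte marker Ptprc (CD45) had signals of 17440, 15590, 12680 and 17210 in trauma-hemorrhage blood, against 15120, 15010, 16550 and 15730 in sham blood, but after quantile normalization it was lower after trauma-hemorrhage (-0.45, adjusted p = 0.0052). Markers of the liver, heart muscle and pancreas were dim, with 0 of 9, 0 of 10 and 0 of 4 tested genes called. The summed signal of the 9 liver genes was 245 to 575 on the trauma-hemorrhage arrays and 268 to 421 on the sham arrays, that of 14 heart muscle genes 468 to 1010 and 351 to 757, and that of 7 pancreas genes 149 to 320 and 140.5 to 217. Both groups were hybridized on the same pair of days, replicates 1 and 2 on the first and replicates 3 and 4 on the other. The arrays differed by group in technical measures. The mean signal of the 5 labelled spike-in probe sets was 10826, 9184, 9859 and 9631 on the trauma-hemorrhage arrays, above 6294, 5954, 7012 and 5680 on the sham arrays. The ratio of 3′ to 5′ signal of Gapdh, a measure of RNA integrity and amplification, was 1.66, 1.81, 2.54 and 2.14 on the trauma-hemorrhage arrays, and 3.30, 3.31, 2.97 and 2.51 on the sham arrays, where a higher ratio means less 5′ signal. Trauma-hemorrhage replicate 2 stood apart from the other arrays. It correlated with the other trauma-hemorrhage arrays at 0.906 or more over all genes and with the sham arrays at 0.848 to 0.882.

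At 1 day 2525 of 14708 tested genes (17.2%) differed, of which 1057 (7.19%) were higher and 1468 (9.98%) lower after trauma-hemorrhage. All 4 injured arrays were above all 4 sham arrays in 1187 genes (8.07%) and below them in 1362 (9.26%). The 15 largest rises of the first kind include Slc6a9, Gstt1, Ngp, Ifit1 and Irf7, known from red cell precursors, glutathione conjugation, neutrophil granules and the interferon response. Dst, which encodes the cytolinker dystonin, had signals of 2926, 670.2, 2148 and 2187 in trauma-hemorrhage blood, against 66.6, 10.6, 109 and 2.71 in sham blood (4.72 ± 0.65, adjusted p = 7.21e-07). Hjv, known as hemojuvelin, a co-receptor through which the liver senses iron, had 877, 131, 1408 and 1630 in trauma-hemorrhage blood, against 42.2, 3.71, 1.64 and 36.2 in sham blood (3.96 ± 0.54, adjusted p = 7.84e-07). Every injured array lay above every sham array for both, and the injured array nearest to the sham arrays was replicate 2. Slc6a9, a glycine transporter that supplies heme synthesis in red cell precursors, had 5326, 999, 5513 and 5901 in trauma-hemorrhage blood, against 907, 116, 622 and 182 in sham blood (3.30 ± 0.65, adjusted p = 0.00031). Lamp5, a lysosomal membrane protein, had 186, 863, 589.7 and 432 in trauma-hemorrhage blood, against 4.85, 62, 7.81 and 6.07 in sham blood. The sham values lie below the median signal of their arrays, so that its difference of 3.35 depends on the constant of 32. Timp3, an inhibitor of matrix metalloproteases, differed by 3.07, Tpm2, a tropomyosin, by 3.23, and Parm1, Ankrd28, Mxra7 and Ces2g by 3.74, 3.34, 3.16 and 3.10. The remaining 5 of the 15, Gstt1, Ngp, Ifit1, Irf7 and Prok2, belong to groups described below.

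The 15 largest falls were smaller than the largest rises, at -2.89 to -1.995. They included the B cell surface proteins Fcer2a and Cr2, and Cd55, which shields cells from complement. Grap, an adaptor of lymphocyte signalling, had signals of 40.2, 3.85, 18.3 and 132 in trauma-hemorrhage blood, against 438, 231, 348 and 203 in sham blood (-2.25 ± 0.40, adjusted p = 9.54e-05). Strbp, an RNA-binding protein, had 212, 152, 533 and 444 in trauma-hemorrhage blood, against 1714, 1537, 967 and 1539 in sham blood (-2.12 ± 0.35, adjusted p = 3.99e-05). All 4 injured arrays lay below all 4 sham arrays for both genes, and replicate 2 was the lowest injured array. The largest fall of all was of 9630050P21Rik, a transcript without a protein name, with 394, 50.4, 207 and 281 in trauma-hemorrhage blood, against 2382, 1916, 1180 and 1346 in sham blood. Further falls were of Trim68, Fam160a2, Tcaim, Fam193b, Acad9, Tubgcp6 and the transcripts 4930523C07Rik and E130308A19Rik, between -2.36 and -1.995. For Trpm1, which differed by -2.08, none of the 3 other probe sets of the gene differed in the same direction, so that fall belongs to 1 probe set.

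**Figure D1:**
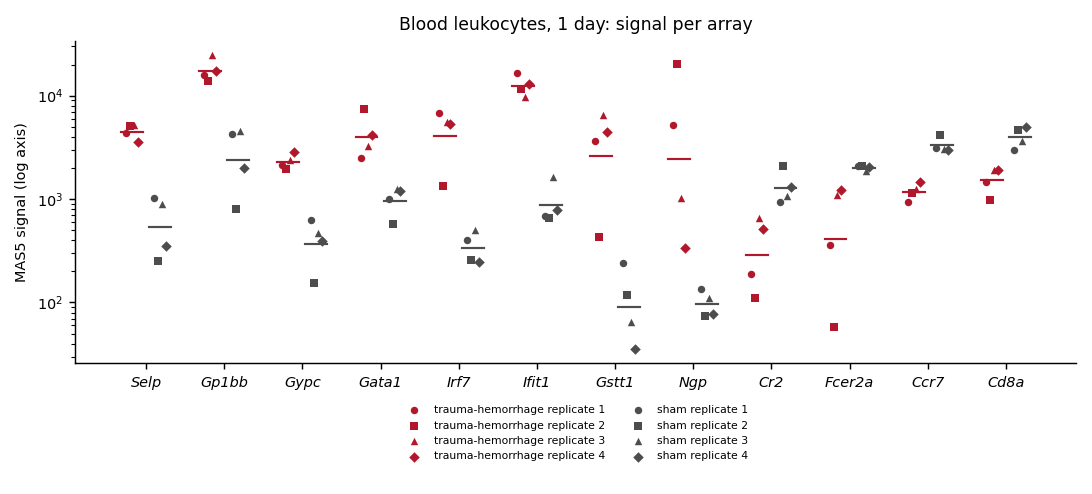
MAS5 signal (vertical log axis) of 12 genes on each of the 8 blood arrays at 1 day. For each gene the trauma-hemorrhage arrays (red) stand left of the sham arrays (grey), each symbol is a replicate number, and bars are geometric means. The injured arrays lie wholly above the sham arrays for the first 8 genes and wholly below them for the last 4, and replicate 2 (square) is the highest injured array for Ngp and the lowest for Cr2 and Fcer2a.

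Platelet genes rose almost without exception. Of 23 tested genes of platelets and megakaryocytes, 21 rose and none fell, with a median difference of 1.58 beside -0.01 over all genes tested. The mean log2 level of the list was 13.21, 13.72, 13.61 and 13.58 on the trauma-hemorrhage arrays, against 12.26, 11.51, 12.08 and 11.84 on the sham arrays, without overlap. Selp, or P-selectin, the adhesion protein that platelets show on activation, had signals of 4396, 5077, 5144 and 3549 in trauma-hemorrhage blood, against 1018, 252, 897 and 349 in sham blood (2.99 ± 0.54, adjusted p = 0.000121). Gp1bb, a subunit of the receptor through which platelets hold von Willebrand factor, had 15860, 14000, 24500 and 17130 in trauma-hemorrhage blood, against 4288, 806, 4562 and 2013 in sham blood (2.86 ± 0.55, adjusted p = 0.000246). Sham replicate 2 was the lowest array for both genes, and the injured arrays spread less than the sham arrays. Itga2b and Itgb3 encode the chains of the fibrinogen receptor. Itga2b had 8578, 13170, 11260 and 11320 in trauma-hemorrhage blood, against 3341, 2342, 3695 and 2785 in sham blood (1.86 ± 0.39, adjusted p = 0.00062). Itgb3 had 31250, 32000, 34700 and 33630 in trauma-hemorrhage blood, against 15990, 9152, 13970 and 10780 in sham blood (1.43 ± 0.32, adjusted p = 0.00142). Tbxas1, which makes thromboxane A2, had the smallest adjusted p of the list at 8.6e-06, with 1165, 2564, 2656 and 2050 in trauma-hemorrhage blood, against 716, 328, 495 and 561 in sham blood. Each injured array was above each sham array in these genes also. The alpha granule proteins Thbs1 (thrombospondin), Vwf and Pf4 differed by 1.82, 1.83 and 1.10, with adjusted p of 0.00107, 0.00165 and 0.0436. The 2 that did not pass, Rgs18 and Mmrn1, are named for that reason after their values were seen (adjusted p = 0.0676 and 0.0616). Without sham replicate 2 the count was 14, and without injured replicate 2 it was 15. With the spike-in level as a covariate 12 of the 23 passed (median 1.14), and after quantile normalization 13 did (median 1.17), with none lower in either.

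Genes of the red cell membrane and its skeleton rose as a group, although red cells had been lysed in both groups. Of 17 tested genes 14 rose and none fell, with a median of 1.75. Gypc, or glycophorin C, which ties the membrane to its skeleton, had signals of 2134, 1954, 2408 and 2823 in trauma-hemorrhage blood, against 625, 155, 474 and 391 in sham blood (2.54 ± 0.28, adjusted p = 1.11e-08), and it had the smallest adjusted p of all lists together with Irf7. Kel, the Kell blood group protein, had 1156, 342, 1424 and 1037 in trauma-hemorrhage blood, against 284, 12.1, 218 and 47.8 in sham blood (2.82 ± 0.53, adjusted p = 0.000181). Aqp1, the water channel of red cells, had 986, 1766, 2255 and 1457 in trauma-hemorrhage blood, against 389, 166, 356 and 339 in sham blood (2.25 ± 0.46, adjusted p = 0.000457). In all 3 genes sham replicate 2 was the lowest array. Epb42, or protein 4.2, had 6623, 1636, 8026 and 6080 in trauma-hemorrhage blood, against 2125, 105, 816 and 226 in sham blood, the largest difference of the list at 3.26 ± 0.68 (adjusted p = 0.000601), although injured replicate 2 lay below sham replicate 1. Rhag, the partner of the Rhesus proteins, and Tspan33, a tetraspanin, differed by 2.71 and 2.48 (adjusted p = 0.000963 and 0.00167). Slc4a1, or band 3, the anion exchanger, had 40630, 21850, 38570 and 40370 in trauma-hemorrhage blood, against 19940, 6202, 14990 and 5846 in sham blood (1.75 ± 0.49, adjusted p = 0.00899). The mean log2 level of the list was 10.01, 9.22, 10.50 and 10.19 after trauma-hemorrhage and 8.79, 7.45, 8.60 and 7.64 in sham blood. The sham arrays fell apart into a higher pair, replicates 1 and 3, and a lower pair, replicates 2 and 4.

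Enzymes and regulators of red cells rose in part. Of 14 tested red cell enzymes and maturation genes 7 rose, with a median of 1.30. These were Car2, Prdx2, Bpgm, Ube2o, Map1lc3b, Ube2l6 and Isg20, and the last pair is also known from the interferon response. Tfrc was among those that did not pass, with a difference of 0.70. Car2, carbonic anhydrase, had signals of 39180, 12530, 42530 and 35670 in trauma-hemorrhage blood, against 15740, 2024, 10830 and 4005 in sham blood (2.26 ± 0.49, adjusted p = 0.00104), with injured replicate 2 below sham replicate 1. Prdx2, the abundant peroxiredoxin of red cells, had 28770, 17390, 30290 and 26910 in trauma-hemorrhage blood, against 11650, 4244, 9858 and 4413 in sham blood (1.89 ± 0.40, adjusted p = 0.000708). Bpgm, which makes the 2,3-bisphosphoglycerate that loosens oxygen from hemoglobin, and Ube2o, the ubiquitin ligase that clears ribosomes from reticulocytes, differed by 1.25 and 1.79 (adjusted p = 0.0156 and 0.0111). Of the 12 erythroid transcription factors and regulators 7 rose, and some of these, such as Gata1, Nfe2 and Tal1, also act in megakaryocytes. Gata1, the factor that drives red cells and megakaryocytes, had 2486, 7499, 3284 and 4183 in trauma-hemorrhage blood, against 994, 574, 1247 and 1205 in sham blood (2.02 ± 0.39, adjusted p = 0.000269). Nfe2 had 2446, 5812, 2469 and 2675 in trauma-hemorrhage blood, against 1371, 1448, 1377 and 1212 in sham blood (1.19 ± 0.26, adjusted p = 0.00104), and Tal1, Gfi1b, Foxo3, Epor (the erythropoietin receptor) and Jak2 rose by 1.50, 1.28, 0.73, 1.28 and 0.46. Injured replicate 2 was the highest array for Gata1, Nfe2 and Tal1, and it was the lowest injured array for Kel, Epb42 and Rhag. Bcl11a, which silences fetal globin and is also expressed in B cells, was the only one of the 12 that fell (-1.54 ± 0.36, adjusted p = 0.0022). Klf1, the master regulator of adult globin, did not pass (0.74 ± 0.47, adjusted p = 0.289). Without injured replicate 2 the regulators counted 4 rises and no fall.

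A few heme and globin genes passed. Of 11 tested heme synthesis genes 2 rose. Alas2, the erythroid rate-limiting enzyme, had signals of 52340, 43800, 51750 and 54170 in trauma-hemorrhage blood, against 31610, 22520, 33420 and 29040 in sham blood (0.80 ± 0.29, adjusted p = 0.0424), and Fech, which inserts iron into heme, differed by 0.83 (adjusted p = 0.0474). The count of heme genes was 0 to 1 with each array left out in turn. Both are among the bright genes to which a caveat below applies. Of 5 tested globin genes, Hba-a2 and the embryonic Hbb-y rose by 0.88 and 1.54 (adjusted p = 0.0085 and 0.0407), and only 1 passed when any array but injured replicate 1 was left out. Hba-a1 had a difference of 0.27 that did not pass. Hbb-b2 had 29580, 18540, 20410 and 27210 in trauma-hemorrhage blood, against 15150, 15080, 16590 and 14180 in sham blood and did not pass (adjusted p = 0.158). Its injured arrays nonetheless all lay above its sham arrays. Of 17 genes of iron and heme handling, Hjv and the ferritin heavy chain Fth1 rose (1 without injured replicate 2 or 4 or sham replicate 2 or 4), while Hp (haptoglobin) and Hmox1 (heme oxygenase) had differences of 0.23 and 0.11 that did not pass. With the spike-in level as a covariate 6 of 17 membrane genes passed (median 0.80), 2 of 14 enzymes (0.51), 3 regulators (0.28) and no globin gene were higher. The Gapdh ratio as a covariate went the other way, with 16 membrane genes (median 2.82), 11 enzymes (1.80), 8 regulators (1.17) and 3 globin genes higher. Without sham replicate 2, 9 of 17 membrane genes and 3 of 14 enzymes passed. Quantile normalization left 14 of 17 membrane genes called (median 1.80). Within the 2 hybridization days the median of the membrane list was 1.42 and 2.18. What part of these rises goes with the spike-in level or the Gapdh ratio was not tested.

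The promoter of Epb42 is shown because it holds the letters AGATAA, the core bound by Gata1, on the strand opposite to the gene, and because both Gata1 and Epb42 rose. The window runs from 250 bases before to 50 after the gene's start (RefSeq, GRCm38.p6, chr2:121036828-121037127, minus strand), with the match, which begins 226 bases before the start, in capitals.
Epb42: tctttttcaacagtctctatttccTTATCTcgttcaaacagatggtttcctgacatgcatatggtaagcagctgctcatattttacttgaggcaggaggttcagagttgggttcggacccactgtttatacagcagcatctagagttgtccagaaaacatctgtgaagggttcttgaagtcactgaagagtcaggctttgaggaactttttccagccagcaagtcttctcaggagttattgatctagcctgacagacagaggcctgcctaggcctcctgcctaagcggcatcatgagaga
AGATAA was sought on both strands of such windows, and 12.7% of 27025 genes held it. Among genes of the red cell membrane list, 4 of the 12 tested genes with a window held it (Epb42 and Kel among them), as did 4 of 18 platelet genes (Pf4 among them) and 2 of 10 heme genes (Alas2 among them). A match of letters is a description of the window and not a bound site.

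Enzymes that remove peroxides and conjugate glutathione rose alongside. Of 19 tested genes 10 rose and none fell, with a median of 0.74. Gstt1, a glutathione transferase, had signals of 3659, 426, 6526 and 4430 in trauma-hemorrhage blood, against 243, 119, 64.8 and 35.8 in sham blood (4.37 ± 0.72, adjusted p = 2.94e-05). Injured replicate 2 lay well below the other injured arrays and above each sham array. Gpx4, the peroxidase of membrane lipids, had 2062, 2983, 3559 and 3479 in trauma-hemorrhage blood, against 1185, 687, 1060 and 925 in sham blood (1.61 ± 0.27, adjusted p = 4.64e-05). Gclm, the modifier subunit of the enzyme that starts glutathione synthesis, had 7719, 8064, 12190 and 11270 in trauma-hemorrhage blood, against 2784, 1825, 3500 and 2134 in sham blood (1.94 ± 0.42, adjusted p = 0.00102). Srxn1 (sulfiredoxin), Sod1 and Gsto1 differed by 1.56, 0.69 and 1.04. For Sod1 only 1 of 4 other probe sets of the gene differed in the same direction. With the spike-in level as a covariate 5 of 19 passed (median 0.46), and without sham replicate 2 it was also 5. The promoter of Gclm holds the letters TGACNNNGC, the core of the antioxidant response element, on the strand opposite to the gene, in capitals below, beginning 134 bases before the start (RefSeq, GRCm38.p6, chr3:122245307-122245606, plus strand).
Gclm: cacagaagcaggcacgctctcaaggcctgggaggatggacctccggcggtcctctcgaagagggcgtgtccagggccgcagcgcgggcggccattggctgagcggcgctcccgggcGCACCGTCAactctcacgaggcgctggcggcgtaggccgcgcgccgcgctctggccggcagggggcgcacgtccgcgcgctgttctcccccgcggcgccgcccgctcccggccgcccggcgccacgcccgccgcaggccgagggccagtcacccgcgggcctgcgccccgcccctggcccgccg
Of all 27025 genes with a window 3781 (14%) held TGACNNNGC on either strand, and 5 of the 16 tested antioxidant genes with a window did, Srxn1 and Sod1 among them.

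**Figure D2:**
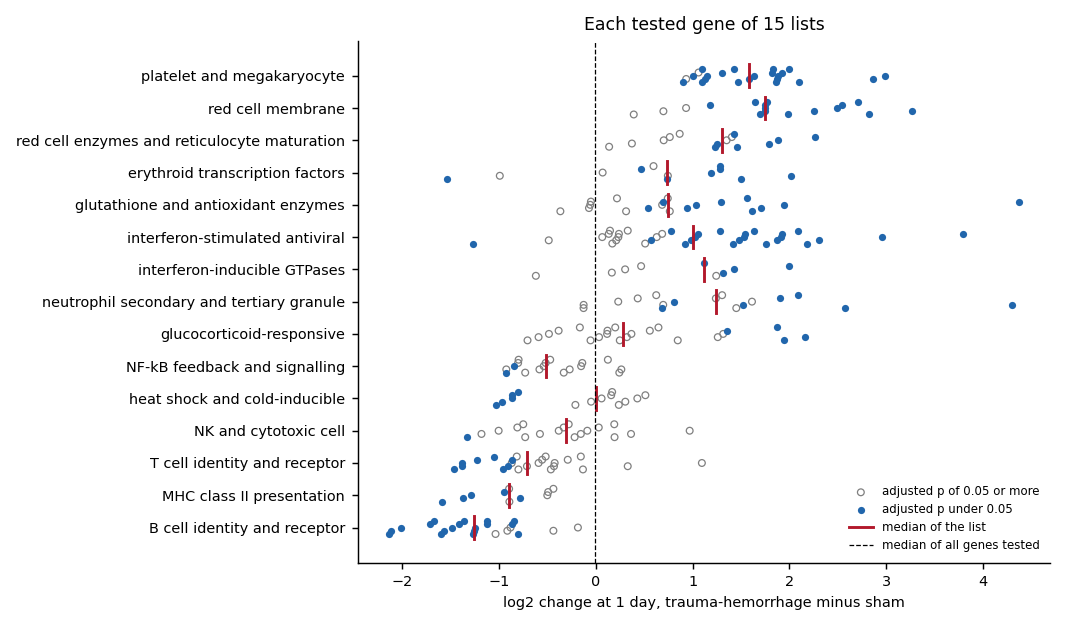
Log2 difference at 1 day, trauma-hemorrhage minus sham (horizontal axis), of each tested gene in 15 lists. Filled points have an adjusted p under 0.05, open points do not, bars are list medians and the dashed line is the median of all genes tested. Platelet, red cell membrane and interferon genes lie mostly right of the line, with medians of 1.58, 1.75 and 1.00, and B cell genes lie to its left with a median of -1.25.

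Interferon-stimulated genes were higher 1 day after the injury. Of 34 tested antiviral genes 21 rose and 1 fell, with a median of 1.00. Ifit1, which binds viral RNA that lacks the host cap, had signals of 16710, 11550, 9609 and 13060 in trauma-hemorrhage blood, against 685, 655, 1629 and 778 in sham blood (3.79 ± 0.45, adjusted p = 3.88e-08). Oas3, an enzyme that makes the second messenger of RNase L, had 18800, 9494, 16840 and 16270 in trauma-hemorrhage blood, against 2589, 1535, 2872 and 1126 in sham blood (2.95 ± 0.46, adjusted p = 1.16e-05). Irf7, the factor that amplifies interferon production, had 6823, 1324, 5543 and 5297 in trauma-hemorrhage blood, against 399.9, 256, 504 and 248 in sham blood (3.46 ± 0.38, adjusted p = 1.11e-08). The lowest injured array was over 2 times the highest sham array in each of these genes. Lgals3bp, a secreted glycoprotein, had nearly the same level on all injured arrays, with 2214, 2215, 2221 and 2164 in trauma-hemorrhage blood, against 462, 317, 495 and 429.7 in sham blood (2.31 ± 0.29, adjusted p = 1.54e-07). Ifi27 and Cmpk2, a mitochondrial nucleotide kinase, rose by 2.08 and 1.92 (adjusted p = 4.99e-05 and 0.000314). Dtx3l, a ubiquitin ligase, rose by only 0.77 but with little spread (adjusted p = 0.000329). Ly6e, a small surface protein that is also a marker of lymphocytes, fell, with 612, 585, 905 and 681 in trauma-hemorrhage blood, against 2917, 917, 1147 and 2628 in sham blood (-1.26 ± 0.28, adjusted p = 0.00146).

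Not all of the pathway rose. Mx1, the classic antiviral GTPase, had signals of 2377, 1394, 567 and 1342 in trauma-hemorrhage blood, against 234, 905, 875 and 2146 in sham blood and did not pass (0.63 ± 0.44, adjusted p = 0.35), nor did the chemokine Cxcl10 (0.34 ± 0.48, adjusted p = 0.684). Of 9 tested interferon-inducible GTPases, which attack vacuoles of intracellular microbes, 4 rose, with a median of 1.12. Gbp7 had 19530, 8555, 16820 and 22190 in trauma-hemorrhage blood, against 3074, 4570, 4329 and 3931 in sham blood (2.00 ± 0.24, adjusted p = 3.88e-08), and Igtp, Irgm1 and Gbp2 rose by 1.31, 1.12 and 1.43. Among 16 genes of interferon signalling, Irf7, the receptor chain Ifnar2 and the kinase Jak2 rose and Irf8 fell. The sign of Ifnar2 turned with the mean of all its probe sets (-0.031) and that of Jak2 after quantile normalization (-0.023), and neither passed there. No gene of these 16 fell without injured replicate 2, and 2 fell without injured replicate 3. Stat2 and Irf9, which take part in switching these genes on, had differences of 0.14 (adjusted p = 0.834) and -0.07 (adjusted p = 0.872). Ifng, which encodes interferon gamma, did not pass either (-1.29 ± 0.54, adjusted p = 0.0845). In the schlafen family Slfn4, known in myeloid cells, had 37570, 34850, 25360 and 20470 in trauma-hemorrhage blood, against 14580, 7338, 16270 and 11450 in sham blood (1.27 ± 0.31, adjusted p = 0.00276), which did not pass after quantile normalization (0.84, adjusted p = 0.0556), and Slfn5 also rose, with only 1 rise in the family without injured replicate 2, 3 or 4 or sham replicate 1 or 2. The count of raised antiviral genes was 20 with the spike-in level as a covariate, 19 after quantile normalization and 17 to 21 with each array left out in turn, and Ly6e fell in the first 2 settings. Within the 2 hybridization days the list's median was 1.30 and 0.76.

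The promoters of Ifit1 and Oas3 are shown because both genes rose and because their windows hold the core of the interferon-stimulated response element, searched on both strands as GAAA, any 2 bases and GAAA again. The Ifit1 window (RefSeq, GRCm38.p6, chr19:34640639-34640938, plus strand) holds it at 2 places, on the opposite strand, beginning 104 and 85 bases before the start. The Oas3 window (chr5:120777610-120777909, minus strand) holds it once, on the strand of the gene, 75 bases before the start. Capitals mark the matches.
Ifit1: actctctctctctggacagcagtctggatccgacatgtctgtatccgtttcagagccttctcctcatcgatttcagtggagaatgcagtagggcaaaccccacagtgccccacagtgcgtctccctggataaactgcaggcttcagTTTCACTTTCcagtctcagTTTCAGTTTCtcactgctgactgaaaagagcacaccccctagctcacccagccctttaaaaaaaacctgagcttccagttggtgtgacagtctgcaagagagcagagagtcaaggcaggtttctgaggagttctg
Oas3: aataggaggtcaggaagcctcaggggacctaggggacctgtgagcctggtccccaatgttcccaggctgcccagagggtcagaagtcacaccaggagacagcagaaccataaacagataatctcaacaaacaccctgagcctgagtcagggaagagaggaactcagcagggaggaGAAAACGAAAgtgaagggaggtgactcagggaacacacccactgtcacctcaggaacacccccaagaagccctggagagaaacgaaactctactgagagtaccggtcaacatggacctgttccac
Of all 27025 genes with a window 3.99% held this motif on either strand. Of the tested antiviral genes with a window 10 of 22 held it, and of the GTPases 6 of 7, Gbp7, Igtp, Irgm1 and Gbp2 among them. Irf7 belongs to neither list, and its window is not described here.

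Neutrophil granule genes were higher, but unevenly between mice. Of 17 tested genes in a list made for the secondary and tertiary granules 7 rose and none fell, with a median of 1.24. The 7 were Ngp, Ltf, Camp, Olfm4, S100a8, S100a9 and the leukotriene receptor Ltb4r1. Of these S100a8, S100a9 and Ltb4r1 do not encode proteins of these granules. Ngp, neutrophilic granule protein, which is made in immature neutrophils, had signals of 5224, 20170, 1021 and 336 in trauma-hemorrhage blood, against 134, 74.7, 110.1 and 78.1 in sham blood (4.29 ± 0.76, adjusted p = 9.34e-05). Ltf (lactoferrin) had 188, 1518, 283 and 82.3 in trauma-hemorrhage blood, against 5.56, 70.1, 11.5 and 26.3 in sham blood (2.58 ± 0.83, adjusted p = 0.0243). Camp (cathelicidin) had 275, 1161, 193 and 95 in trauma-hemorrhage blood, against 64.5, 4.53, 92.1 and 41.9 in sham blood (2.08 ± 0.71, adjusted p = 0.0337). In these 3 genes injured replicate 2 was the highest array by far. S100a8 and S100a9, the abundant calcium-binding proteins of the neutrophil cytoplasm, differed by 0.81 and 0.68 (adjusted p = 0.0074 and 0.0215). Both are among the bright genes to which a caveat below applies. Lcn2 (lipocalin) had 15770, 26490, 5411 and 3558 in trauma-hemorrhage blood, against 3323, 3433, 4908 and 2525 in sham blood and did not pass (adjusted p = 0.0944). None of 6 primary granule genes passed. Elane and Mpo, which are made at the promyelocyte stage, had signals of 103 or lower on all 8 arrays.

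Genes of mature neutrophils mostly did not pass. Of 15 tested, Prok2, Mxd1 and Il1r2 rose. Prok2, a secreted peptide of activated neutrophils, had 2645, 2509, 296 and 167 in trauma-hemorrhage blood, against 2.75, 70.1, 139 and 46.4 in sham blood (3.30 ± 0.58, adjusted p = 8.27e-05). Il1r2, the decoy receptor of interleukin 1, had 2061, 13750, 776 and 524 in trauma-hemorrhage blood, against 456, 472, 532 and 397 in sham blood (1.94 ± 0.63, adjusted p = 0.0243). Injured replicates 1 and 2 were above replicates 3 and 4 in both. Cxcr2, a chemokine receptor that draws neutrophils out of the marrow, and Csf3r, the receptor of the growth factor G-CSF, had differences of 0.31 and -0.38 that did not pass. The cysteine protease inhibitor Stfa3 rose by 2.80 with the same split between mice, at 1323, 1586, 139.9 and 54.6 in trauma-hemorrhage blood, against 34.8, 3.79, 82.2 and 19.1 in sham blood. The mean log2 level of the granule list was 11.59, 12.62, 10.53 and 10.25 in injured blood, against 9.71, 10.06, 10.16 and 10.06 in sham blood. Without injured replicate 2 the genes called in the granule list were 2 and the median was 0.64, and without sham replicate 2 they were 4. Within the hybridization day of replicates 1 and 2 the granule list had a median of 1.97, with 5 genes called from those arrays alone and 11 with the spread of all arrays, a form chosen after seeing the data. Within that of replicates 3 and 4 it had a median of 0.36 and none called in either form. For mature neutrophil genes these medians were 1.58 and -0.44. Each day holds 2 arrays of either group, and whether day or mouse moved these genes was not tested.

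Over all genes tested 7.19% rose and 9.98% fell. Rises in the monocyte, tissue macrophage and eosinophil lists were near the first share, and monocyte falls near the second. Of 17 monocyte genes F13a1 rose (1.15 ± 0.28, adjusted p = 0.00281), which encodes clotting factor XIII and is also a platelet gene. Pou2f2 and Spn, which lymphocytes also express, fell. No monocyte gene fell without injured replicate 2 or sham replicate 1, and 1 fell without any other array but injured replicate 3, while 2 rose without injured replicate 4. Ccr2, Csf1r and Cd14 did not pass (-0.56, -0.29 and 1.36). Of 16 tissue macrophage genes the scavenger receptor Marco rose, with 236, 88, 316 and 96.8 in trauma-hemorrhage blood, against 8.38, 4.64, 70.3 and 5.73 in sham blood (1.99 ± 0.65, adjusted p = 0.026). None rose without injured replicate 1 or 3 or sham replicate 1, 2 or 4, while 3 rose without injured replicate 4 and 2 without sham replicate 3. Of 13 dendritic cell genes none rose, and Ccr9, Irf8 and Ly6d, which lymphocytes also express, fell. Flt3, Itgax and Siglech did not pass (-1.38, -0.62 and -0.535). Without injured replicate 2 the count of dendritic cell genes was 1 in each direction. Of 9 genes of suppressive myeloid cells Tgfb1 and Cd274, the ligand PD-L1, rose. Cd274 had 2759, 12710, 3283 and 3903 in trauma-hemorrhage blood, against 1213, 1540, 2542 and 2805 in sham blood (1.25 ± 0.30, adjusted p = 0.00243), and Arg1 did not pass (1.30 ± 0.97, adjusted p = 0.387). Without injured replicate 2 only 1 of the 9 rose. In clotting, 5 of 11 leukocyte genes rose, and 3 without injured replicate 2. F5, factor V, had 31950, 30030, 29790 and 34700 in trauma-hemorrhage blood, against 14420, 10310, 14610 and 12780 in sham blood (1.29 ± 0.29, adjusted p = 0.00173). Serpinb2, an inhibitor of plasminogen activators, had 1688, 2074, 748 and 683 in trauma-hemorrhage blood, against 298, 291, 196 and 187 in sham blood (2.14 ± 0.61, adjusted p = 0.0102). F10 (factor X), Plek and F13a1 also rose, and platelets carry F5, Plek and F13a1 too. Of 12 genes of eosinophils, basophils and mast cells, Gata2 rose (1.21 ± 0.36, adjusted p = 0.0152), and none did without injured replicate 2 or sham replicate 2. None of 17 tested inflammatory cytokines and chemokines passed in either direction at 1 day, with Tnf at 0.78, Il6 at 0.37, Il10 at 0.73 and Il1b at -0.55, and 1 rose without sham replicate 3. None of 9 plasma cell genes passed, and 1 fell without sham replicate 1.

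B cell genes fell. Of 23 tested genes of B cell identity and the B cell receptor 18 fell and none rose, with a median of -1.25. Cr2 (CD21), the complement receptor of mature B cells, had signals of 187, 111, 652 and 512 in trauma-hemorrhage blood, against 942, 2067, 1063 and 1322 in sham blood (-2.01 ± 0.39, adjusted p = 0.000312). Fcer2a (CD23), the low-affinity IgE receptor, had 359, 57.4, 1088 and 1234 in trauma-hemorrhage blood, against 2081, 2065, 1863 and 2052 in sham blood (-2.12 ± 0.49, adjusted p = 0.00177). Cd72 and Cd22, which restrain the receptor, had differences of -1.67 and -1.56 (adjusted p = 0.000583 and 0.00265). The fall was deepest in injured replicate 2, where Fcer2a was at 57.4. Cd55, which shields cells from complement, had 829.5, 234, 1818 and 1945 in trauma-hemorrhage blood, against 2369, 8147, 2982 and 5195 in sham blood (-2.13 ± 0.46, adjusted p = 0.000841), and Fcrla differed by -1.71. Cd79a, a signalling chain of the receptor, had 2704, 876, 3532 and 4521 in trauma-hemorrhage blood, against 5493, 6296, 6325 and 5718 in sham blood (-1.25 ± 0.33, adjusted p = 0.00533). Ms4a1 (CD20) did not pass (-1.03 ± 0.39, adjusted p = 0.055), nor did Cd74, the invariant chain (-0.44 ± 0.26, adjusted p = 0.263). The mean log2 level of the list was 10.94, 9.08, 11.16 and 11.37 in injured blood, against 11.83, 12.02, 11.90 and 11.85 in sham blood. The injured arrays all lay below the sham arrays, with replicate 2 far below the rest.

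Genes that present antigen on MHC class II fell with them, in 5 of 10 tested genes and with a median of -0.89. Ciita, their master regulator, had signals of 208, 73.3, 381 and 274 in trauma-hemorrhage blood, against 500.1, 602, 783 and 906 in sham blood (-1.58 ± 0.39, adjusted p = 0.00364). H2-DMa, which loads peptide, had 1984, 659, 2007 and 2988 in trauma-hemorrhage blood, against 3402, 5904, 4498 and 4132 in sham blood (-1.37 ± 0.30, adjusted p = 0.00127). H2-Ab1, H2-Eb1 and H2-Ob differed by -1.28, -0.94 and -0.78. By contrast B2m, the light chain of MHC class I, and Tapbp rose by 0.69 and 0.37, and the other 12 of 14 class I genes did not pass. No class I gene rose without sham replicate 2, and 1 did without any other array but sham replicate 3. After quantile normalization Tapbp had a difference of -0.11 that did not pass. Without injured replicate 2 the B cell genes that fell numbered 5 (median -0.75) and the class II genes 2 (median -0.45), and the class II count was 3 without sham replicate 2 and 8 without injured replicate 4. Within the hybridization days the B cell list had a median of -1.89 for replicates 1 and 2, with 6 genes called from those arrays alone and 19 with the spread of all arrays. For replicates 3 and 4 the median was -0.58 and none was called in either form. With the spike-in level as a covariate 17 B cell genes fell, and after quantile normalization 20.

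Fewer of the T cell genes fell. Of 23 tested genes 8 fell and none rose, with a median of -0.71. Ccr7, which guides naive T cells to lymph nodes, had signals of 934, 1142, 1257 and 1461 in trauma-hemorrhage blood, against 3117, 4209, 3055 and 2997 in sham blood (-1.46 ± 0.28, adjusted p = 0.000261). Bcl11b, a factor of T cell identity, had 3188, 2537, 4211 and 4458 in trauma-hemorrhage blood, against 9172, 8755, 7590 and 7536 in sham blood (-1.22 ± 0.27, adjusted p = 0.00112). Cd8a, the coreceptor of cytotoxic T cells, had 1468, 988, 1890 and 1911 in trauma-hemorrhage blood, against 2977, 4636, 3674 and 4936 in sham blood (-1.38 ± 0.33, adjusted p = 0.00259). Injured and sham arrays did not overlap in any of the 3, and injured replicate 2 lay among the injured arrays for Ccr7, while sham replicate 2 was the highest array. Cd3g, Cd8b1 and Cd5 fell by smaller amounts (-1.05, -0.96 and -0.91). Cd4 and Cd3e did not pass (-0.43 ± 0.40, adjusted p = 0.498 and -0.15 ± 0.33, adjusted p = 0.805). Of 18 genes of NK and cytotoxic cells only Klre1 fell (-1.32 ± 0.38, adjusted p = 0.0112), beside 9.98% lower over all genes tested. The list median was -0.30, and Klrd1 and Ncr1 did not pass. No gene of the list fell without injured or sham replicate 2, and 3 fell without injured replicate 3 or 4. Of 8 GIMAP genes, small GTPases of lymphocyte survival, Gimap8, Gimap7 and Gimap4 fell by -0.79, -1.06 and -0.79. Tlr1 was the only one of the Toll-like and innate receptors that passed, with 1381, 959, 1400 and 2041 in trauma-hemorrhage blood, against 3445, 3864, 3106 and 2962 in sham blood (-1.23 ± 0.28, adjusted p = 0.00145). In that list 2 genes fell without injured or sham replicate 1, and 2, 3 and 1 rose without injured replicate 3, injured replicate 4 and sham replicate 3. Of T cell genes 3 fell without injured replicate 2, 3 without sham replicate 2, 5 without sham replicate 3 and 4 without injured replicate 1, without sham replicate 4 or with the Gapdh ratio as a covariate. Of GIMAP genes none fell without injured replicate 2 and 5 without injured replicate 4.

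**Figure D3:**
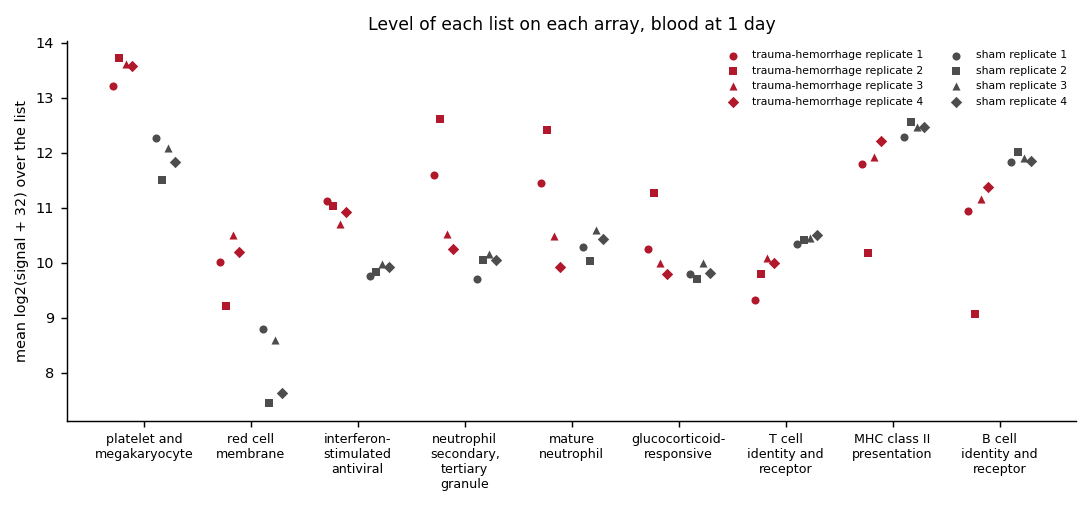
Mean log2(signal + 32) of 9 gene lists (vertical axis) on each array at 1 day, with trauma-hemorrhage arrays (red) left of sham arrays (grey) and a symbol for each replicate number. Levels are comparable between arrays within a list and not between lists. Injured replicate 2 is the highest array for both neutrophil lists and the glucocorticoid-responsive list and the lowest for the B cell and MHC class II lists, where it reads 9.08 against 11.83 or more in sham blood for B cell genes.

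Stress hormone targets were highest in injured replicate 2. Of 22 tested glucocorticoid-responsive genes 4 rose and none fell, with a median of 0.29. Fkbp5, which restrains the glucocorticoid receptor, had signals of 982, 2017, 662 and 311 in trauma-hemorrhage blood, against 185, 289, 373 and 379.8 in sham blood (1.35 ± 0.34, adjusted p = 0.00383). Klf9 had 1612, 4621, 915 and 449 in trauma-hemorrhage blood, against 427, 208, 652 and 226 in sham blood (1.87 ± 0.56, adjusted p = 0.0158). Mt2, a metallothionein, had 137, 4391, 162 and 48.9 in trauma-hemorrhage blood, against 36.1, 66.5, 47.1 and 23.6 in sham blood (2.16 ± 0.78, adjusted p = 0.0453). Replicate 2 was the highest injured array in each, and injured and sham arrays overlapped in all 3. Tsc22d3, another common target, did not pass (-0.05 ± 0.22, adjusted p = 0.907). Without injured replicate 2 none of the 22 passed (median 0.10), and without sham replicate 2 or 4 it was 1.

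Some chaperone and replication genes fell, and no member of either list rose. Of 14 tested heat shock genes 5 fell, while the median of the list was 0.01. Hspa4 had signals of 1945, 1326, 2300 and 1940 in trauma-hemorrhage blood, against 3184, 4255, 3111 and 4135 in sham blood (-0.97 ± 0.22, adjusted p = 0.00185). The mitochondrial chaperone Hspd1 had 864, 627, 727 and 1075 in trauma-hemorrhage blood, against 1809, 1415, 1927 and 1611 in sham blood (-1.03 ± 0.25, adjusted p = 0.00315), and its partner Hspe1, with Dnaja1 and Dnajb1, which assist Hsp70, fell by -0.81, -0.86 and -0.86. Of 18 DNA replication genes 6 fell, with a median of -0.34. Mcm5, Mcm4 and Mcm3 are subunits of the replicative helicase and differed by -1.64, -0.57 and -1.05. Cdt1, which loads the helicase, had 817, 297, 571 and 608 in trauma-hemorrhage blood, against 1850, 897, 1303 and 1576 in sham blood (-1.28 ± 0.33, adjusted p = 0.00508). Pcna and Ung also fell. Without injured replicate 2 only 1 replication gene passed, and 4 of the heat shock genes did. Without sham replicate 2, or after quantile normalization, 3 replication genes passed. Of the mitosis genes Ube2c, which reticulocytes also express, and Nusap1 rose by 2.20 and 1.80, Bub1 fell and Mki67 did not pass (0.98 ± 0.39, adjusted p = 0.0771). Of mitosis genes 4 rose without injured replicate 2 and 1 without injured replicate 3 or sham replicate 2, and none fell without injured replicate 2, 3 or 4 or sham replicate 1. Over all genes tested 9.98% fell, and the falls among NF-kB and immediate-early genes were near that share. Of 17 NF-kB genes Rela and the adhesion protein Icam1 fell (-0.92 ± 0.25, adjusted p = 0.00706 and -0.84 ± 0.26, adjusted p = 0.0183). After quantile normalization none of the 17 passed (median -0.32). With no such normalization 1 fell without injured replicate 3 and 4 fell without injured replicate 4. Of 19 immediate-early genes Klf2 and Btg2 fell, but none without injured replicate 1, 1 without injured replicate 3 or sham replicate 2 or 4, and 4 without sham replicate 3.

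Calls among genes of metabolism and housekeeping varied by list, some above and some below the shares of 7.19% higher and 9.98% lower over all genes tested. Of 22 genes of oxidative phosphorylation 5 rose and 3 fell. The small subunits Cox5a, Cox7a2, Cox6a1 and Ndufa1 were among the rises (1.11, 0.81, 1.03 and 1.31), and Ndufs1, Sdha and Ndufb5 were the falls (-0.90, -0.66 and -0.61). Only 1 gene of the list fell without injured replicate 2. Of 21 glycolysis and hypoxia genes Pkm, Tpi1 and Pgk1 rose by 0.96, 0.77 and 0.50, and only 1 passed without injured replicate 2 or 4 or without sham replicate 2 or 3. Of 26 proteasome genes Psmd4 rose, with 5583, 4927, 6678 and 5737 in trauma-hemorrhage blood, against 2066, 1311, 2221 and 1734 in sham blood (1.65 ± 0.23, adjusted p = 7.84e-07), and Psmd12 fell. No proteasome gene fell without injured replicate 3 or sham replicate 2, and 4 fell without injured replicate 1. None of 18 ribosomal protein genes passed, and 1 fell without injured replicate 3 or 4. Of 13 apoptosis regulators Bcl2l1, the survival protein of late red cell precursors and platelets, had 4093, 3488, 5470 and 4930 in trauma-hemorrhage blood, against 2583, 706, 1685 and 866 in sham blood (1.76 ± 0.41, adjusted p = 0.00185), and Casp8 fell. No apoptosis gene fell without injured replicate 1 or 2 or sham replicate 2, and 2 rose without injured replicate 4 or sham replicate 2. Of 9 general leukocyte genes Tmsb4x rose (0.68 ± 0.23, adjusted p = 0.0301), but none did without injured replicate 2 or sham replicate 1 or 4, and 2 did without injured replicate 4. Of 16 stroma and vessel genes 4 rose, but 1 without injured replicate 1 or 3, 2 without injured replicate 2 or sham replicate 3 or 4, and 1 with the spike-in level as a covariate. Their summed signal was 2680 to 7195 on the trauma-hemorrhage arrays and 2212 to 4037 on the sham arrays. Col1a1, a collagen chain of fibroblasts, had 209, 333, 592 and 119.9 in trauma-hemorrhage blood, against 30, 72.4, 54.2 and 34.8 in sham blood (1.95 ± 0.44, adjusted p = 0.00154), and Col3a1, Dcn and Mgp rose with overlapping arrays. These were at 30 to 1101 on the injured arrays, and injured replicate 4 was the lowest injured array in all 4.

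The brightest genes shifted upward together. Of 451 genes whose mean signal over the 8 arrays was above 10000, 222 rose and 7 fell, with a median of 0.58, a grouping made after the values were seen. After quantile normalization 97 of them rose and 98 fell (median 0.11), and with the spike-in level as a covariate 96 rose and 18 fell (median 0.23). Of the genes named here 30 called ones are in this range, and 11 of them were called in the same direction both after quantile normalization and with the spike-in level as a covariate. These were Car2, Prdx2, Gp1bb, Itgb3, Thbs1, Plek, F5, Gbp7, Dtx3l, Cox7a2 and H2-Ob. Alas2, Fech, Fth1, B2m, S100a8, S100a9, Tmsb4x, Sod1, Pf4, Foxo3 and Jak2 passed in neither setting. Slc4a1 had 1.75 in the comparison as given, 1.29 after quantile normalization (adjusted p = 0.0266) and 0.66 with the spike-in level (adjusted p = 0.181). Bpgm, Cox6a1, Nusap1, F13a1, Slfn4, Tapbp and Trim30a likewise passed in 1 of the settings. Selp, Gypc, Irf7 and Ngp are below this range. Over all genes the share of rises among the calls was 41.9% and became 49.6% after quantile normalization, with medians of -0.01 and -0.02.

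The change in blood at 1 day was next compared with that at 2 hr, each against 4 sham arrays of its own time. At 2 hr 474 genes (3.22%) were called. The effects at the 2 times differed in 746 genes (5.07%), with 356 (2.42%) higher and 390 (2.65%) lower at 1 day. Red cell membrane genes were higher at 1 day than at 2 hr. Of 17 genes 9 had a larger effect at 1 day and none a smaller one, and the list medians were 1.75 at 1 day and -0.54 at 2 hr. Gypc had an effect of 2.54 at 1 day and -0.53 at 2 hr, a difference of 3.06 ± 0.40, adjusted p = 6.74e-07. Epb42, Kel and Rhag differed between the times by 4.61, 3.68 and 3.85 (adjusted p = 0.0016, 0.0013 and 0.00252). Of the mitosis genes 5 were higher, Ube2c, Mki67, Tpx2 and Nusap1 among them, and of the platelet genes 2. The mitosis list had a median of 0.32 at 1 day and -0.88 at 2 hr, where 2 of its genes fell and 0 rose. Mki67 and Tpx2 did not pass at 1 day (0.98 and 0.45). The platelet list had a median of 1.58 at 1 day and 0.43 at 2 hr.

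NF-kB genes and some interferon genes had lower effects at 1 day than at 2 hr. Of 17 NF-kB genes 9 were lower and none higher, and their medians were -0.52 at 1 day and 1.30 at 2 hr. Icam1 had an effect of -0.84 at 1 day and 2.28 at 2 hr, a difference of -3.13 ± 0.37, adjusted p = 4.84e-08. Tnfaip3, which ends NF-kB signalling, had -0.58 at 1 day and 2.84 at 2 hr, and Tnip1 and Nfkbie behaved alike. Cxcl10, a chemokine of interferon and NF-kB, had 0.34 at 1 day and 5.84 at 2 hr, where its mean signal was 6967 ± 3346 after trauma-hemorrhage and 76.7 ± 24.9 in sham blood (SD, n = 4 each). Cgas, the sensor of DNA in the cytosol, had -0.61 at 1 day and 3.93 at 2 hr (difference -4.54 ± 0.53, adjusted p = 4.84e-08). Pmvk, an enzyme of the mevalonate pathway, had the smallest p of all genes, with -0.91 at 1 day and 3.44 at 2 hr (difference -4.35 ± 0.41, adjusted p = 5.13e-11). Cdk11b likewise had effects of opposite sign (-1.38 at 1 day and 0.94 at 2 hr).

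The antiviral genes divided between the times. Of 34 genes 8 had a smaller and 2 a larger effect at 1 day. Parp14 and Parp9 were at 0.07 and 0.15 at 1 day, and at 2.20 and 2.06 at 2 hr. Mx1 rose by 3.77 at 2 hr (difference -3.14 ± 0.62, adjusted p = 0.00104). Ifi27 had 2.08 at 1 day and -0.72 at 2 hr (difference 2.81 ± 0.50, adjusted p = 0.000209). Irf7 was raised at both times and more at 1 day, by 3.46 at 1 day and 1.63 at 2 hr (adjusted p of the difference 0.0301). Ifit1 was raised by 3.79 at 1 day and 3.22 at 2 hr, and its difference of 0.57 did not pass. Among the GTPases 5 of 9 were smaller at 1 day, Ifi47, Gbp6, Irgm1 and Irgm2 among them. T cell genes were also lower, in 9 of 23, with list medians of -0.71 at 1 day and 0.51 at 2 hr. Bcl11b differed by -2.02 ± 0.38, adjusted p = 0.000509, and Cd3d, Il7r and Ccr7 by -1.97, -1.80 and -1.67. No B cell gene differed, and the B cell medians were -1.25 at 1 day and -0.89 at 2 hr. The number of genes that differed fell to 403 without trauma-hemorrhage replicate 4 of 2 hr and was 1127 with the Gapdh ratio as a covariate.

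**Figure D4:**
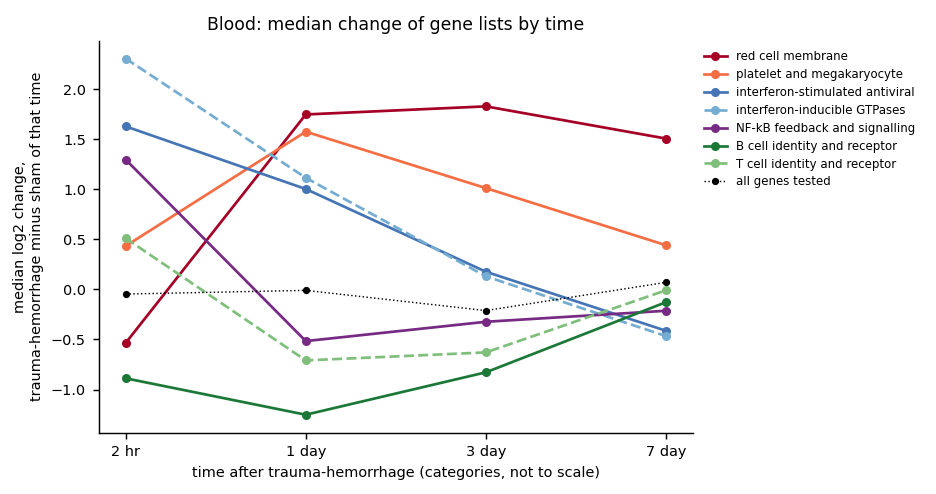
Median log2 change, trauma-hemorrhage minus the sham of the same time (vertical axis), of 7 gene lists and of all genes tested in blood at 2 hr, 1 day, 3 day and 7 day (categories, not to scale). NF-kB and interferon lists are highest at 2 hr, the red cell membrane list lies at 1.75 at 1 day and at -0.54 at 2 hr, and the B cell list has its lowest median, -1.25, at 1 day.

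Few genes differed between the effects at 1 day and at 3 day. Against their own shams 1814 genes (12.3%) were called at 3 day, and the effects at the 2 times differed in 10 genes (0.068%), 7 (0.0476%) higher and 3 (0.0204%) lower at 1 day, with 1354 (9.21%) at an unadjusted p under 0.05. This does not show that the effects were alike, since differences of effects carry the error of 16 arrays. Irf7 had 3.46 at 1 day and 1.01 at 3 day, a difference of 2.45 ± 0.53, adjusted p = 0.0359. Cd274 had 1.25 and -0.86 (2.12 ± 0.42, adjusted p = 0.0232). Birc2, an inhibitor of cell death, Adgrf4, an adhesion receptor, and Pea15a were likewise higher at 1 day than at 3 day, by 2.04, 3.07 and 1.84. Bub1, a kinase of the mitotic checkpoint, and Rfesd were lower, by -2.90 and -2.50. The count was 0 without sham replicate 2 of 1 day and 36 without trauma-hemorrhage replicate 3 of 3 day. Red cell membrane medians were 1.75, 1.83 and 1.51 at 1, 3 and 7 day, and those of the antiviral genes 1.00, 0.18 and -0.41. For platelet genes they were 1.58, 1.01 and 0.44, and for B cell genes -1.25, -0.83 and -0.13. At 7 day 1212 genes (8.24%) were called, and this effect was not tested against that at 1 day.

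Burn injury, the other model of the study, was set beside trauma-hemorrhage in blood at the same time, each with 4 sham arrays of its own. Burn changed 3708 genes (25.2%), 9.15% of the genes tested upward and 16.1% downward, and the effects of the injuries differed in 2329 (15.8%), with 1260 (8.57%) higher and 1069 (7.27%) lower after trauma-hemorrhage. Interferon genes were higher after trauma-hemorrhage than after burn. Of 34 antiviral genes 23 had a higher effect after trauma-hemorrhage and none a lower one, with medians of 1.00 after trauma-hemorrhage and -0.70 after burn, where 15 fell and none rose. Ifit1 had 3.79 after trauma-hemorrhage and -0.25 after burn, a difference of 4.04 ± 0.64, adjusted p = 4.19e-06. Herc6, an interferon-induced ligase, had 1.63 and -1.88, and Samd9l, Trim30a and Sp100 had 0.21, 0.57 and 0.33 after trauma-hemorrhage and -3.45, -1.35 and -2.21 after burn. Of the 9 GTPases 7 were higher, Gbp7 by 2.97 ± 0.34, adjusted p = 2.83e-09, and Irgm2, Igtp and Ifi47 by 2.91, 2.37 and 1.35.

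Stress programs ran the other way. Of 22 glucocorticoid-responsive genes 10 were lower after trauma-hemorrhage than after burn and 1 was higher, and 4 rose after trauma-hemorrhage against 14 after burn. Per1, a clock gene that glucocorticoids induce, had -0.48 after trauma-hemorrhage and 3.52 after burn (difference -4.01 ± 0.55, adjusted p = 2.72e-07). Ddit4 and Cdkn1a differed by -2.28 and -3.55. Il7r was the gene that was higher, at -0.59 after trauma-hemorrhage and -3.80 after burn. Heat shock genes were lower in 7 of 14, among them the inducible Hspa1b, at 0.31 after trauma-hemorrhage and 4.94 after burn (-4.63 ± 0.66, adjusted p = 5.7e-07), and Hspa4, Dnaja1 and Hspd1. Of 17 NF-kB genes 9 were lower, Tnfaip3, Bcl3 and Map3k8 by -2.90, -2.46 and -2.22, while Ikbke was higher. Immediate-early and proteasome genes were lower in 7 of 19 and 7 of 26, and 1 gene of each list was higher. Pmvk was at -0.91 after trauma-hemorrhage and 3.19 after burn (-4.10 ± 0.41, adjusted p = 8.07e-11).

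Lymphocyte genes fell less after trauma-hemorrhage than after burn. Of 23 B cell genes 9 had a higher, that is less negative, effect and none a lower one, with medians of -1.25 and -2.50. Ms4a1 had -1.03 after trauma-hemorrhage and -5.00 after burn (3.97 ± 0.55, adjusted p = 3.02e-07), and Bank1, Fcmr and Pou2af1 differed by 2.98, 2.90 and 1.48. Of 8 GIMAP genes 6 were higher, and Gimap8 had the smallest p of all genes, with -0.79 and -4.58 (3.79 ± 0.32, adjusted p = 4.87e-13). Of 18 NK and cytotoxic genes 7 were higher, Klrd1, Klra8, Nkg7 and Gzmb among them, and of 23 T cell genes 5. Mosmo, Cdk19 and Tasor, of no list, were higher by 4.70, 2.82 and 3.02. Red cell membrane genes were higher in 8 of 17, with medians of 1.75 after trauma-hemorrhage and -0.06 after burn. Gypc had 2.54 and -0.20 (2.74 ± 0.40, adjusted p = 1.06e-06), and Slc14a1, a urea transporter, Epb42 and Kel differed by 3.93, 4.95 and 2.98. Of 23 platelet genes 6 were higher. Gp1bb had 2.86 and 0.09 (2.77 ± 0.78, adjusted p = 0.00856), while Selp rose after both injuries, by 2.99 and 2.30, and its difference did not pass (adjusted p = 0.643). No hybridization day held all 4 groups, so that the difference between the injuries cannot be given within a day.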

How the data were processed

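Blood leukocyte RNA was measured on 1-colour Affymetrix arrays. The deposited values are linear intensities. MAS5 and GCOS 1.4 are named for them in the submitters' processing notes, and each burn and trauma-hemorrhage array has a mean of 500 once 2% of its values are trimmed from either end. The table holds 45101 probe sets, and 34945 report a single gene. Another 932 report more than 1 gene, 9160 report none and 64 are controls. Where a gene had several, the brightest was used among probe sets whose names do not end in _x_at or _s_at, if there were any. This gave 18193 genes, 18031 of them matched to RefSeq by gene ID. The fit took log2(value + 32) of the 64 burn and trauma-hemorrhage blood arrays in 16 groups, with limma 3.58.1 (R 4.3.3) and a trended variance, for 14708 genes that exceeded the median of an array on 4 arrays or more. A p was adjusted by Benjamini-Hochberg over all of them, with a threshold of 0.05. Changes of signals near 32 are understated. Arrays have no read depth, and their number limits the precision. The fit was tested on simulated data with known changes, 50 genes for each size. It recovered 4% of changes of 0.5 log2, 28% of 1 log2, 84% of 2 log2 and 100% of 3 log2. A gene that did not pass may therefore have changed.

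The comparisons were chosen, and the 47 gene lists (773 genes, 673 tested) written, with earlier results of these data known. The text names, by rule, the 15 largest rises and the 15 largest falls without overlap of arrays, the 6 smallest p of each list and any member that went against most, the 6 smallest p of each difference between effects with up to 4 members of the lists described there, and a fixed set of markers. A listed gene without a probe set of its own was not analysed here. Lists are described by counts and medians only. Alternatives were other normalizations, filters and constants, the mean of all probe sets, technical covariates, hybridization day and replicate as blocks, each day apart, the groups alone and each array left out. Promoters are windows of 250 bases before to 50 after the start in RefSeq's annotation of GRCm38.p6, and those printed were chosen because they hold a match. Computation used Python 3.11.15, pandas 2.3.3, numpy 2.4.6 and matplotlib 3.10.9.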

Additional observations from a re-analysis of the deposited data

Results flagged for a closer look

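For each gene named in the report the gap between the highest or lowest of the 4 arrays of a group and its neighbour was set against the group's range (Dixon's test at the 95% level). An array stood apart in 40 of 470 groups, where chance gives about 1 in 20. Trauma-hemorrhage replicate 2 stood apart in the signals of Bcl11a (367), Car2 (12530), Cd22 (307), Ces2g (941), Fcrla (213), Gimap4 (1356), Gimap7 (361), Gimap8 (2769), Irf7 (1324), Mcm3 (194), Ms4a1 (1140), Ncr1 (15.4), Nfe2 (5812), Nusap1 (5157), Slc4a1 (21850), Slc6a9 (999), Tasor (2685) and Ube2c (2693). Trauma-hemorrhage replicate 1 stood apart in the signals of Gbp6 (292), Plek (26510) and Vwf (10120). Trauma-hemorrhage replicate 3 stood apart in the signal of Bcl3 (230.3). Trauma-hemorrhage replicate 4 stood apart in the signals of Hspe1 (1759), Lgals3bp (2164) and Stat2 (342). Sham replicate 2 stood apart in the signals of Acad9 (1198), Ankrd28 (191), Aqp1 (166), Ccr7 (4209), Ifi27 (590.3), Lamp5 (62), Parp9 (555), Pea15a (566) and Plek (10460). Sham replicate 1 stood apart in the signals of Klf1 (99.9) and Stat2 (164). Sham replicate 3 stood apart in the signals of Fcer2a (1863), Marco (70.3) and Timp3 (12.2). Sham replicate 4 stood apart in the signal of Fam193b (622).

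Effects at 1 day and at 2 hr differed by the limma test of the difference itself in genes the report names. The log2 difference was positive, higher at 1 day, for Gypc (3.06), Epb42 (4.61), Ifi27 (2.81), Irf7 (1.83), Kel (3.68), Mki67 (2.15), Nusap1 (2.76), Rhag (3.85), Tpx2 (2.91) and Ube2c (3.54). It was negative for Pmvk (-4.35), Icam1 (-3.13), Cgas (-4.54), Cxcl10 (-5.50), Cdk11b (-2.33), Bcl11b (-2.02), Ccr7 (-1.67), Cd3d (-1.97), Gbp6 (-3.90), Ifi47 (-1.82), Il7r (-1.80), Irgm1 (-1.77), Irgm2 (-2.003), Mx1 (-3.14), Nfkbie (-3.17), Parp14 (-2.13), Parp9 (-1.92), Tnfaip3 (-3.42) and Tnip1 (-2.22).

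Effects at 1 day and at 3 day differed by the limma test of the difference itself in genes the report names. The log2 difference was positive, higher at 1 day, for Birc2 (2.04), Cd274 (2.12), Adgrf4 (3.07), Pea15a (1.84) and Irf7 (2.45). It was negative for Rfesd (-2.50) and Bub1 (-2.90).

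Effects of trauma-hemorrhage and burn differed by the limma test of the difference itself in genes the report names. The log2 difference was positive, higher after trauma-hemorrhage, for Gimap8 (3.79), Samd9l (3.66), Mosmo (4.70), Cdk19 (2.82), Tasor (3.02), Bank1 (2.98), Epb42 (4.95), Fcmr (2.90), Gbp7 (2.97), Gp1bb (2.77), Gypc (2.74), Gzmb (2.17), Herc6 (3.51), Ifi47 (1.35), Ifit1 (4.04), Igtp (2.37), Ikbke (1.75), Il7r (3.21), Irgm2 (2.91), Kel (2.98), Klra8 (2.38), Klrd1 (1.66), Ms4a1 (3.97), Nkg7 (1.90), Pou2af1 (1.48), Slc14a1 (3.93), Sp100 (2.54) and Trim30a (1.92). It was negative for Pmvk (-4.10), Bcl3 (-2.46), Cdkn1a (-3.55), Ddit4 (-2.28), Dnaja1 (-1.89), Hspa1b (-4.63), Hspa4 (-2.22), Hspd1 (-1.25), Map3k8 (-2.22), Per1 (-4.01) and Tnfaip3 (-2.90).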

How the results depend on the processing

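The count of genes called at 1 day, 2525, was 1743 to 2957 with the spike-in level or the Gapdh ratio as a covariate, quantile normalization (1912, 49.6% higher against 41.9%), constants of 1 and 100, no filter, the mean of all probe sets and hybridization day as a block. It was 1500 with the 2 groups fitted alone (60.1% higher), where fewer arrays estimate the spread. Within the day of replicates 1 and 2 it was 258 with those arrays alone and 1366 with the spread of all arrays, and within the day of replicates 3 and 4 it was 38 (92.1% higher) and 241 (73.0% higher). The form with the spread of all arrays was chosen after seeing the data. With each array left out it ran between 1491, without trauma-hemorrhage replicate 2 (755 higher, 736 lower), and 2463, and was 1680 without sham replicate 2.

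The difference from 2 hr, 746 genes, was 1127 with the Gapdh ratio (56.8% higher against 47.7%), 182 with its groups alone, 13 and 269 within the first day (alone and pooled), 3 and 28 within the other, and 403 to 995 with each array left out. The difference from 3 day, 10 genes, was 21 with the spike-in level, 0 with its groups alone (933 at an unadjusted p under 0.05), 16 with the mean of all probe sets, 26 with a constant of 100, 4 after quantile normalization, 0 and 3 within the first day, 0 and 2 within the other, and 0 to 36 with each array left out. The difference from burn, 2329 genes, stayed within 1.5 times in all settings run, at 2018 to 2380 with each array left out.

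Replicate numbers are not stated to pair injured with sham mice. At 1 day the deviations of same-numbered arrays correlated at 0.059, 0.041, 0.091 and 0.016, and those of differently numbered arrays at -0.132 to 0.155. Such correlations cannot exclude a pairing of mice. With a replicate block the counts were 2513, 719 for the difference from 2 hr, 17 for that from 3 day and 2325 for that from burn.

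For 4 single genes the sign changed in 1 setting each. After quantile normalization Ptprc was at -0.45 (adjusted p = 0.0052), Jak2 at -0.023 and Tapbp at -0.11, and Ifnar2 was at -0.031 with the mean of all probe sets and none of the last 3 passed there. The causes of these changes were not tested. A dim probe set near the constant of 32 limits the size of a difference.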
